A study of Drosophila melanogaster
Mus musculus with 36 samples.

Results

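The libraries compared here come from mixtures in which 1 part of fly total RNA was added to 10000 parts of mouse total RNA, with 3 libraries oxidised with sodium periodate and 3 left untreated. They are the 6 of 36 small RNA libraries whose labels give this ratio, and all 372 fly (dme) and 1666 mouse (mmu) miRNA entries were used, 1 entry per arm (5p or 3p) of a hairpin. The fly RNA in all 6 libraries came from Drosophila melanogaster S2-S cells of the genotype DmHen1-KO; FLAG-MYC-AthHEN1, an embryonic line without its own Hen1 that expresses a tagged HEN1 of Arabidopsis thaliana. The mouse RNA came from embryonic stem (ES) cells of clone AN3-12, grown with LIF. Each mixture was divided after size selection to 18 to 30 nt and removal of 2S rRNA, and only the oxidised portion met periodate. Replicate 1 used 25 µg of mouse RNA per mixture and a HiSeq2500, whereas for replicates 2 and 3 each mixture held 50 µg of total RNA and a HiSeq2000 was used. The labels name neither the promoter of the HEN1 transgene nor separate cultures for the replicates, so the spread between libraries may be technical.

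HEN1 enzymes methylate the 2′-hydroxyl at the 3′ end of small RNAs. Plants protect their miRNAs in this way, whereas animal miRNAs normally end in a free pair of hydroxyls. Periodate opens an unprotected end so that no adapter can be ligated to it, and a methylated RNA passes unharmed. In such a mixture the fly miRNAs are the minority that carries the plant mark. bantam promotes growth and blocks apoptosis in flies, the mir-2 and mir-13 families target pro-apoptotic genes there, and the mouse mir-290 cluster is the dominant miRNA cluster of ES cells.

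Total miRNA counts in the untreated libraries were 1797159, 1972455 and 7090117 in replicates 1, 2 and 3, and in the oxidised libraries 4750, 91903 and 24809. A count of 0 therefore allows a share of up to 0.0632% of the counts in oxidised replicate 1 and up to 4.23e-05% in untreated replicate 3 (3 counts, counting error only). Arms of miRNAs known from S2 cells took between 84.4% and 98.2% of the fly counts of a library. The mir-290 cluster, the ES cell marker, took between 60.6% and 90.0% of mouse counts, and arms of other mouse tissues between 0.703% and 1.60%. Untreated replicate 1 stood apart from untreated replicates 2 and 3 in its mouse composition, and oxidised replicate 2 in its list of low mouse entries, so values without these libraries are given where they change a result.

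Oxidation turned fly miRNAs from a trace into a large minority of the library. The fly share of counts was 0.0338% (95% Wilson interval 0.0312% to 0.0366%), 0.0186% (0.0167% to 0.0206%) and 0.0174% (0.0165% to 0.0184%) in untreated replicates 1, 2 and 3. In the oxidised libraries it was 13.1% (12.2% to 14.1%), 27.9% (27.6% to 28.2%) and 37.2% (36.6% to 37.8%). The groups did not overlap, and replicate 1 was the highest of the untreated and the lowest of the oxidised libraries.

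**Figure D1:**
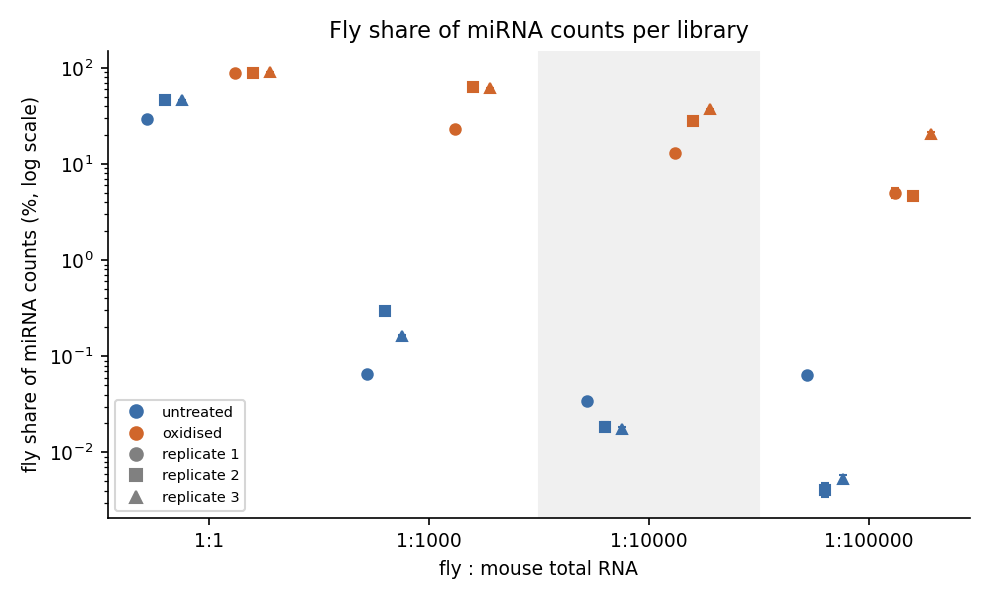
Fly share of all miRNA counts in percent (log axis) for each library at 4 mixing ratios, with 95% Wilson intervals; blue is untreated, orange oxidised, and symbols mark the replicate. At 1:10000 (shaded) the untreated libraries lie at 0.0338%, 0.0186% and 0.0174% and the oxidised ones at 13.1%, 27.9% and 37.2%.

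The ratio of fly to mouse counts rose by 8.80, 11.03 and 11.73 on the log2 scale in the 3 pairs (447-fold, 2085-fold and 3391-fold). The exact permutation p of 3 against 3 libraries was 0.1, the smallest this design allows. The same rise rested on different counts in each pair. In replicate 1 the oxidised library held 624 fly counts and its untreated partner 608, a ratio of 1.03, while mouse counts were 435-fold lower. In replicate 2 fly counts were 70.1-fold higher (25642 against 366) and mouse counts 29.8-fold lower. In replicate 3 fly counts were 7.46-fold higher (9218 against 1236) and mouse counts 455-fold lower. The amount of fly RNA recovered per library therefore cannot be read from these counts, which depend on how deeply each library was sequenced.

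Setting the dilution beside the 1:1 mixture of the same set gave a value for the fly counts of each untreated library. Diluted 10000-fold, the fly to mouse ratio of the untreated 1:1 libraries would give 75.9, 169 and 626 fly counts. The libraries held 608, 366 and 1236, which is 8.01, 2.16 and 1.97 times as many. All 3 lay above the value from dilution, replicate 1 most. At the neighbouring ratios the log2 rise was 8.84, 9.19 and 9.94 at 1:1000, and 6.36, 10.24 and 12.26 at 1:100000. The mean at 1:10000 was 1.19 higher than at 1:1000 (exact permutation p = 0.4) and 0.90 higher than at 1:100000 (exact permutation p = 0.7), so no difference was shown beyond the spread between pairs.

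More fly arms were seen after oxidation in spite of far lower depth. Arms with 3 or more counts numbered 36, 25 and 42 in the untreated libraries and 38, 59 and 76 in the oxidised ones. With every library thinned to 4737 counts, the expected number was 0.00661, 0.00675 and 0.00475 in the untreated and 38, 42.2 and 46.4 in the oxidised libraries (difference 42.2, exact permutation p = 0.1, the smallest possible). At that depth an untreated library holds almost no fly counts, so this comparison restates the fly shares and adds no separate evidence. The oxidised libraries all lay above the untreated ones. At full depth the ranges of 25 to 42 untreated and 38 to 76 oxidised arms overlapped.

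**Figure D2:**
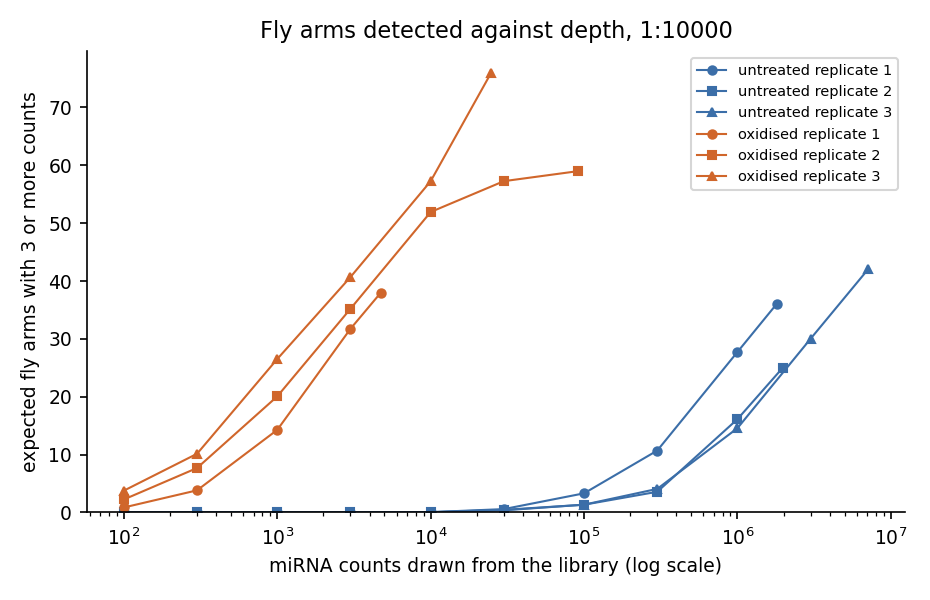
Expected number of fly arms with 3 or more counts (linear axis) against the number of miRNA counts drawn from each 1:10000 library (log axis), without replacement; blue is untreated, orange oxidised. The last point of each line is the whole library, with 36, 25 and 42 arms untreated and 38, 59 and 76 arms oxidised.

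Over all 3 libraries of a treatment, 48 arms reached 3 counts in an untreated library and 82 in an oxidised one. Of these, 41 were seen in both treatments, which is 85.4% of the untreated and 50% of the oxidised arms. A further 41 were seen in oxidised libraries only and 7 in untreated libraries only, and 283 reached 3 counts nowhere. These lists depend on depth, which differed between the libraries. In all 3 oxidised libraries 35 arms reached 3 counts, 32 of them of miRNAs known from S2 cells, and in all 3 untreated libraries 21 did.

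The oxidised libraries differed in how their rarer arms were filled. The median count of the fly arms present was 5 in replicate 1, 86.5 in replicate 2 and 18.5 in replicate 3. In replicate 2, 5 of 64 arms present had fewer than 3 counts, against 23 of 61 in replicate 1 and 8 of 84 in replicate 3. In replicate 2, 6 arms reached 3 counts that did so in no other oxidised library, among them dme-mir-954-3p with 75 counts and 0 in the other 5 libraries. In replicate 3 there were 20 such arms, of which dme-mir-305-3p was the highest with 25 counts and 18 had fewer than 10. Replicate 1 held none.

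Single fly arms were compared relative to mouse miRNAs. Of 117 fly arms tested, 86 were called higher after oxidation and 0 lower (edgeR quasi-likelihood test, adjusted p below 0.05 by Benjamini-Hochberg over all 576 tested entries). Over all tested entries of both species 17.5% were called higher. Of fly arms, 0 were lower at an unadjusted p below 0.05, and DESeq2 also called 0 lower. The oxidised libraries together held 85978 mouse counts, against 10857521 in the untreated ones. A fall of a fly arm relative to mouse miRNAs could thus hardly be detected, so the absence of lower calls adds no evidence. dme-mir-124-3p, with 150 untreated and 0 oxidised counts, did not pass the filter on low counts and was not among the arms tested. The median fitted log2 change was 8.74 over fly arms, against -0.99 over all entries tested and -1.50 over mouse entries. With entries at 0 in one treatment set to their bound and those without counts left out, these medians were 8.78, -0.65 and -0.92. Of the 31 fly arms not called, 23 had no count in any of the 6 libraries.

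The calls rested on unequal evidence. Of the 86 arms, 46 had counts in all 3 oxidised libraries, 21 had no untreated count, and 24 had fewer than 10 counts in all 6 libraries together. The oxidised libraries all lay above the untreated ones, per mouse count, for 46 of the 117 fly arms and 14 of 459 mouse entries (10.4% of all entries tested). In oxidised replicate 1 a single count equals 242 per 1000000 mouse counts. The highest untreated level of a fly arm was 79.6, that of dme-bantam-3p. For fly arms this number thus mostly restates presence in the oxidised libraries and adds no separate evidence. Over 16 alternative settings and omissions, 57 of the 86 kept their call in each setting that tested them. Of the other 29, 24 lost their call when replicate 3 was left out, and leaving out replicate 3 left 63 calls in all. A fit of the 6 libraries alone tested 44 fly arms and called all 44 higher. The filter on low counts is relative to depth, so few counts sufficed to pass it in the shallow oxidised libraries. Arms could thus enter that fit through the treatment where they are high, and its 44 calls add no separate evidence. The same filter served the main fit of all 36 libraries. There too arms could enter through oxidised libraries, of this or another ratio, so the number of the 117 called is not separate evidence of a rise.

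The scaling moved the size of the changes but not the number of fly calls. The normalisation factors (TMM, from mouse entries) of the 3 oxidised libraries were 1.71, 1.99 and 2.66, and those of the untreated ones 0.437, 1.14 and 1.06. On average they lowered the fitted changes at this ratio by 1.37 on the log2 scale. Scaled to mouse counts with no such factor, a choice made after seeing the data, 86 fly arms were again called, with a median of 10.28 over fly arms and 0.04 over all entries. Scaled to total counts of both species 86 were called, with medians of 9.77 and -0.23.

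dme-bantam-3p was the most abundant fly arm in all 6 libraries. Its counts were 132, 157 and 494 in the untreated and 141, 9489 and 2388 in the oxidised libraries. In counts per 1000000 mouse counts this was 73.5, 79.6 and 69.7 untreated, and 34176, 143206 and 153168 oxidised, so the groups were far apart and the untreated libraries close together. The fitted log2 change was 8.95 ± 1.31 (SE; edgeR, Benjamini-Hochberg adjusted p = 1.69e-06). The other arm of the hairpin, dme-bantam-5p, had 8, 6 and 11 untreated and 11, 249 and 227 oxidised counts, with a change of 9.51 ± 1.56.

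**Figure D3:**
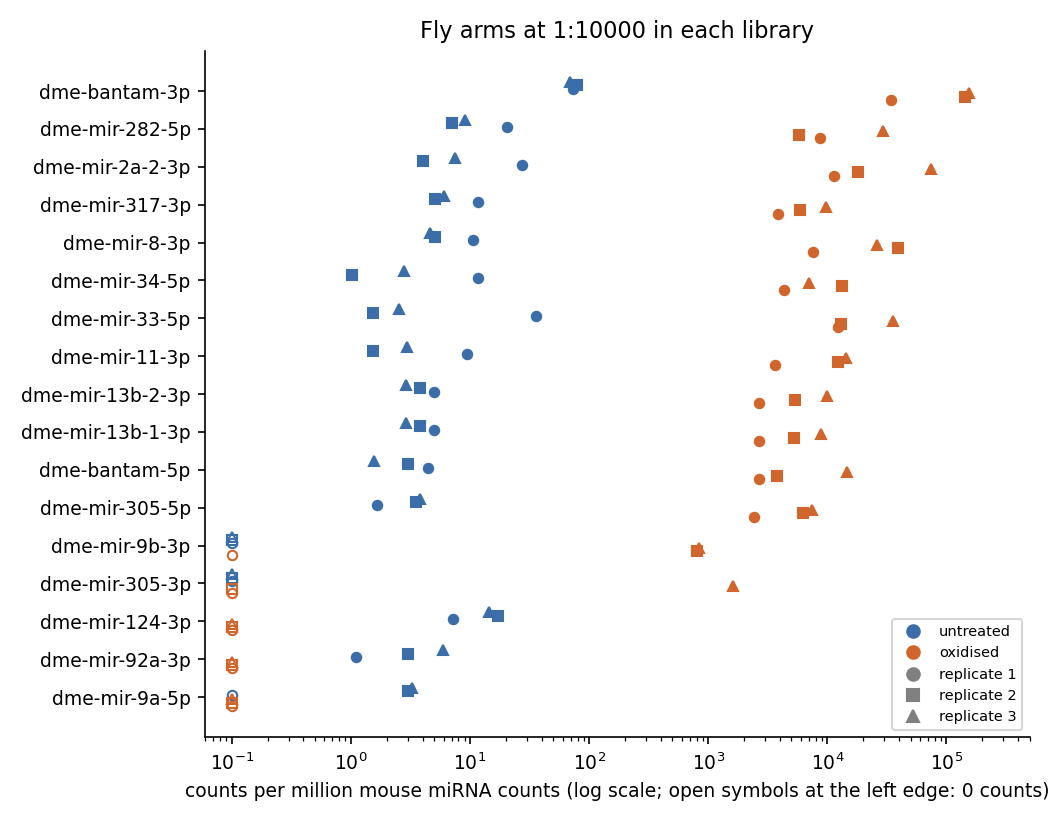
Level in counts per 1000000 mouse counts (log axis) in each 1:10000 library for the 12 leading fly arms and 5 further arms; blue is untreated, orange oxidised, symbols mark the replicate, and open symbols at the left edge stand for 0 counts. For each of the first 12 arms the oxidised libraries lie above the untreated ones, while dme-mir-124-3p and dme-mir-92a-3p appear in the untreated libraries only.

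Arms of the mir-2 and mir-13 family, which recognise the same kind of site in fly pro-apoptotic transcripts, rose with bantam. dme-mir-2a-2-3p had 49.5, 8 and 52.8 untreated counts and 46.5, 1206 and 1167 oxidised counts. Replicate 1 was high among the untreated and low among the oxidised libraries, and the change was 9.27 ± 1.59 (SE). dme-mir-13b-2-3p had 9, 7.5 and 20.5 against 11, 354 and 156 counts, with a change of 8.99 ± 1.22. Fractional counts show that reads were shared between entries of this family, so values of its single copies are uncertain.

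Among regulators of growth and metabolism, dme-mir-8-3p, a fly relative of mir-200 with a role in insulin signalling and growth, had the largest change of the 12 leading arms. Its counts were 19, 10 and 33 untreated and 31, 2571 and 409 oxidised, and its change was 10.11 ± 1.36 (SE; edgeR, Benjamini-Hochberg adjusted p = 4.69e-07). dme-mir-33-5p, from an intron of the fly SREBP gene, had 64, 3 and 18 untreated and 51, 870 and 550 oxidised counts. Its untreated level thus came mainly from replicate 1, and its change was 8.38 ± 1.58. dme-mir-305-5p, which in flies takes part in the balance of stem cells in the gut, had 3, 7 and 27 against 10, 416 and 115 counts and a change of 9.46 (edgeR, Benjamini-Hochberg adjusted p = 2.58e-07). dme-mir-11-3p, which limits cell death in flies, had 17, 3 and 21 against 15, 820 and 225 counts, with a change of 9.25 ± 1.39.

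The mir-277, mir-34 and mir-317 cluster held arms on both sides of the fly median. dme-mir-317-3p had 21, 10 and 43 untreated and 16, 388 and 153 oxidised counts, with a change of 8.02 ± 1.11 (SE). dme-mir-277-3p, which in flies acts on branched-chain amino acid breakdown, had 22, 3 and 13 against 17, 266 and 126 counts and a change of 8.08 ± 1.33. dme-mir-34-5p, known for its part in ageing of the fly brain, had 21, 2 and 20 against 18, 878 and 110 counts and a change of 8.79 ± 1.35. Their partner arms dme-mir-317-5p, dme-mir-277-5p and dme-mir-34-3p changed by 9.85, 6.52 and 9.60. Among called arms with 10 or more counts the smallest change was 7.08 ± 1.08, that of dme-mir-1008-3p with 0, 1 and 6 against 1, 7 and 5 counts. The 62 called arms with 10 or more counts spanned fitted changes of 7.08 to 12.37 with a median of 9.41, the highest being that of dme-mir-9b-3p, which had no untreated count.

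Some arms appeared only after oxidation. dme-mir-9b-3p had 0 counts in every untreated library and 0, 53 and 13 in the oxidised ones, at least 2778-fold higher per mouse count (against 3 counts over the untreated group). dme-mir-278-3p, of a miRNA with a role in fat body energy balance in flies, had 0, 20 and 9 oxidised counts, at least 1221-fold higher. dme-mir-275-5p had 2, 0 and 5 oxidised counts, at least 295-fold higher, and dme-mir-79-5p 1, 0 and 4, at least 210-fold higher. dme-mir-305-3p (at least 1052-fold) rested on the 25 counts of replicate 3, dme-mir-278-5p (at least 1726-fold) on the 41 counts of replicate 2, and dme-mir-954-3p (at least 3157-fold, not tested) on the 75 counts of replicate 2. Without that 1 library each of these 3 had no count left.

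By list, 61 of the 68 tested S2 cell arms were called higher (median 9.19, or 9.06 with bounds), and so were 7 of the 11 tested arms of tissue-restricted miRNAs (median 6.95, or 8.20 with bounds). Over all fly arms 86 of 117 were called, and over all tested entries 17.5%. As a share of fly counts the tissue-restricted arms went from 3.13%, 9.56% and 8.66% untreated to 0.962%, 0.246% and 0.358% oxidised, without overlap, and dme-mir-124-3p made up most of the untreated share. Of the 7 tissue-restricted arms called, 4 had no untreated count and 4 had fewer than 10 counts in all. Among them dme-mir-190-5p had 3, 0 and 1 untreated and 4, 1 and 11 oxidised counts, with a change of 8.26 ± 1.58 (SE).

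The 7 arms that reached 3 counts in untreated libraries only were dme-mir-124-3p, dme-mir-92a-3p, dme-mir-9a-5p, dme-mir-125-5p, dme-mir-210-3p, dme-mir-7-5p and dme-mir-9c-3p. All 7 belong to families with members in mouse. dme-mir-124-3p, of a neuronal miRNA, had 13, 34 and 103 untreated counts and 0 in each oxidised library. dme-mir-92a-3p had 2, 6 and 42 untreated counts and dme-mir-9a-5p 0, 6 and 23, also against 0 in each oxidised library. Together the 7 arms held 247 untreated counts and 1 oxidised count, and 2.96%, 13.4% and 14.6% of the fly counts of untreated replicates 1, 2 and 3.

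These absences read differently on the scales of fly and of mouse counts. As a share of fly counts dme-mir-124-3p was 6.79% in the untreated libraries together and at most 0.00845% in the oxidised ones (3 of 35484 counts), at least 803-fold lower. Per mouse count, the 150 untreated counts would give 1.19 counts in the 3 oxidised libraries together, so a fall relative to mouse miRNAs was not detectable at this depth. The same holds for the other arms: all 247 counts would give 1.96 oxidised counts if they followed the mouse counts.

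Across mixing ratios, dme-mir-124-3p did not thin out with the fly RNA. It stood at 5.73 ± 3.35 (SD, n = 3) counts per 1000000 mouse counts in untreated 1:1 libraries, 13.0 ± 5.17 at 1:10000 and 12.6 ± 5.81 at 1:100000. dme-mir-92a-3p stood at 4.99 ± 4.35, 3.36 ± 2.42 and 2.78 ± 2.50 at the same ratios. dme-mir-9c-3p, by contrast, stood at 962 ± 430 at 1:1 and had 0, 1 and 3 untreated counts at 1:10000. The mouse entry mmu-mir-124-1-3p held 4213, 7106 and 26852 untreated counts at 1:10000. Whether reads of the mouse miRNAs were counted under the fly entries was not tested, since no mature sequences were at hand. Without the 7 arms the untreated fly shares were 0.0328%, 0.0161% and 0.0149%.

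The fly composition of the oxidised libraries was not that of the oxidised 1:1 mixture. dme-bantam-3p took 22.6%, 37.0% and 25.9% of fly counts in oxidised replicates 1, 2 and 3, and 10.2%, 10.7% and 10.4% in oxidised 1:1 libraries. These groups did not overlap (difference 18.1 percentage points, exact permutation p = 0.1, the smallest possible). Untreated, it took 21.7%, 42.9% and 40.0% at 1:10000 and 35.2%, 51.7% and 41.4% at 1:1. dme-mir-317-3p showed the same order, with 2.56%, 1.51% and 1.66% oxidised at 1:10000 against 0.964%, 0.653% and 0.773% oxidised at 1:1 (exact permutation p = 0.1).

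dme-mir-13b-2-3p (1.76%, 1.38% and 1.69% against 1.26%, 1.21% and 1.23%) and its near-identical copy dme-mir-13b-1-3p also lay higher at 1:10000 without overlap (exact permutation p = 0.1 each). The other 8 leading arms were lower at 1:10000 or overlapped between the ratios. dme-bantam-5p took 1.76%, 0.971% and 2.46% of oxidised fly counts at 1:10000 against 2.79%, 4.10% and 4.58% at 1:1 (exact permutation p = 0.1). dme-mir-33-5p took 8.17%, 3.39% and 5.97% against 12.2%, 8.72% and 7.10% (exact permutation p = 0.2). dme-mir-2a-2-3p took 7.45%, 4.70% and 12.7% against 11.9%, 14.1% and 11.1% (exact permutation p = 0.3), and dme-mir-8-3p overlapped between the ratios (exact permutation p = 0.6). With 12 arms compared in groups of 3, no p adjusted over them can lie below 0.1.

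**Figure D4:**
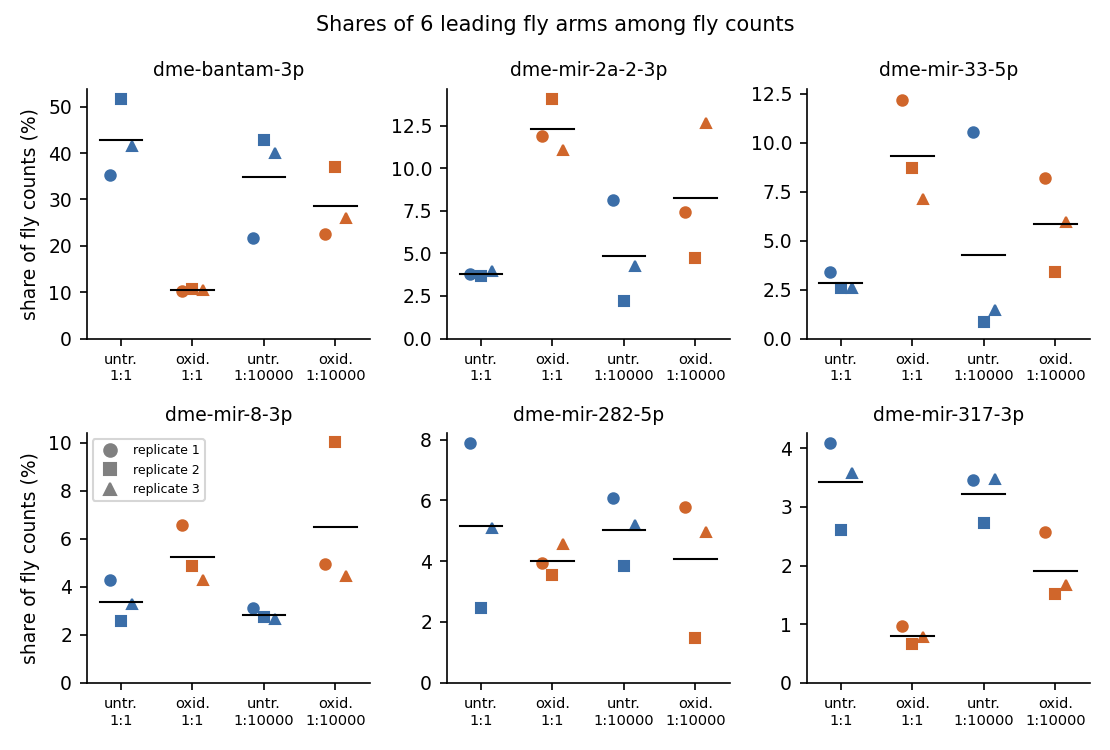
Share of fly counts in percent (linear axes from 0) of 6 leading fly arms in each untreated (blue) and oxidised (orange) library at 1:1 and 1:10000; symbols mark the replicate and bars the mean of 3. For dme-bantam-3p the oxidised libraries lie at 22.6% to 37.0% at 1:10000 and at 10.2% to 10.7% at 1:1.

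Several hairpins differed from the oxidised 1:1 mixture in the balance of their arms without overlap, among them bantam, mir-2a-1, mir-276a, mir-308 and mir-996. The balance overlapped with that mixture for others, among them mir-282, mir-2a-2 and mir-33. For dme-mir-308 the 3p arm took 58.3%, 100% and 35.3% oxidised at 1:10000, on 12, 77 and 68 counts of both arms. At 1:1 it took 20.9%, 19.2% and 22.2% oxidised. Of the reads of the bantam hairpin, the 3p arm took 92.8%, 97.4% and 91.3% in oxidised 1:10000 libraries and 78.6%, 72.3% and 69.5% in oxidised 1:1 libraries, against 94.3%, 96.3% and 97.8% in untreated 1:10000 libraries (difference between the oxidised groups 20.4 percentage points, exact permutation p = 0.1). For dme-mir-2a-1 the 3p arm took 86.7%, 92.8% and 79.1% oxidised at 1:10000 and 38.6%, 32.5% and 26.4% oxidised at 1:1 (difference 53.7 percentage points, exact permutation p = 0.1). The former rest on 7.5, 292.5 and 71.8 counts of both arms. They are uncertain, as reads of this family were shared between entries. The oxidised ratios overlapped for dme-mir-2a-2 (73.2%, 89.9% and 88.5% against 80.0%, 81.7% and 76.7%). They also did for dme-mir-33 (10.5%, 38.8% and 15.3% against 12.5%, 10.2% and 19.0%). For dme-mir-282 the 3p arm took 40%, 72.8% and 64.4% oxidised against 32.7%, 33.3% and 20% untreated at 1:10000, and 65.3%, 64.1% and 57.6% oxidised at 1:1 (difference -3.29 percentage points, exact permutation p = 0.9). Thus the oxidised 1:10000 libraries lay near the untreated ones for bantam, while for mir-282 replicates 2 and 3 lay above every untreated library.

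Compositions were also compared by the share of fly counts that would have to move to another arm to make them equal. This dissimilarity was 14.6% between untreated and oxidised replicate 1, the lowest among the 15 pairs of the 6 libraries. Between untreated replicates 2 and 3 it was 15.3%, and between the untreated and oxidised libraries of replicates 2 and 3 it was 34.6% and 35.9%. From the mean of the untreated 1:1 libraries, untreated replicates 2 and 3 differed by 20.4% and 17.7%, and from that of the oxidised 1:1 libraries by 55.4% and 54.2%. Untreated replicate 1 differed by 29.6% and 26.8%. It was thus no nearer to the untreated than to the oxidised 1:1 profile, unlike the other untreated libraries. The oxidised libraries differed from the untreated 1:1 mean by 28.1%, 22.1% and 26.8% and from the oxidised 1:1 mean by 25.4%, 43.2% and 23.3%.

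In replicate 1 the counts of single fly arms were close before and after oxidation. Of 14 fly arms with 10 or more untreated counts there, 12 had an oxidised count within 1.5-fold of the untreated one, and the median ratio was 0.911. dme-mir-282-5p had 37 and 36 counts, dme-mir-34-5p 21 and 18, and dme-mir-277-3p 22 and 17. In replicates 2 and 3 none of 5 and 25 such arms lay within 1.5-fold, and the median ratios were 38.8 and 7.29. Untreated replicate 1 held 338 fly counts per 1000000 mouse counts at 1:10000, 660 at 1:1000 and 638 at 1:100000. Untreated replicates 2 and 3 held 40.9 and 53.3 at 1:100000. The high fly level of untreated replicate 1 was thus not confined to 1:10000, and its log2 rise at 1:100000 was 6.36. Where its fly counts at 1:10000, 8.01 times those from dilution, came from was not tested.

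The mouse composition was led by the mir-290 cluster in every library. It took 90.0%, 68.3% and 66.8% of mouse counts in untreated replicates 1, 2 and 3 and 76.0%, 60.6% and 60.6% after oxidation. The share was lower in 3 of 3 pairs, by 14.0, 7.76 and 6.25 percentage points, but the groups overlapped (difference -9.34, exact permutation p = 0.5). Without untreated replicate 1 the difference was -1.86. mmu-mir-294-3p, the leading entry, took 39.8%, 12.0% and 12.0% untreated and 22.7%, 13.8% and 11.7% oxidised. Untreated replicate 1 was thus high alone.

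Single arms of the cluster differed by small amounts. mmu-mir-292a-3p took 6.39%, 6.18% and 6.06% of mouse counts untreated and 7.59%, 8.20% and 7.14% oxidised, without overlap. The other arm of that hairpin, mmu-mir-292a-5p, took 8.05%, 5.39% and 5.60% against 5.43%, 3.08% and 2.64%, lower in each pair. mmu-mir-295-3p took 9.56%, 14.8% and 14.0% against 11.1%, 11.3% and 13.8%. With the TMM factors 10 of 14 tested arms of the cluster were called lower (median -1.52). Of all tested entries 26.0% were, and of the 459 mouse entries 150. With no TMM factor or with total counts 0 arms of the cluster were called lower. Among the 10 was mmu-mir-292a-5p at -2.32 ± 0.57 (SE; edgeR, Benjamini-Hochberg adjusted p = 0.00124). Without the factors mmu-mir-292a-5p was at -0.77 ± 0.48 and not called (adjusted p = 0.281), and mmu-mir-292a-3p moved from -1.20 to 0.30.

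**Figure D5:**
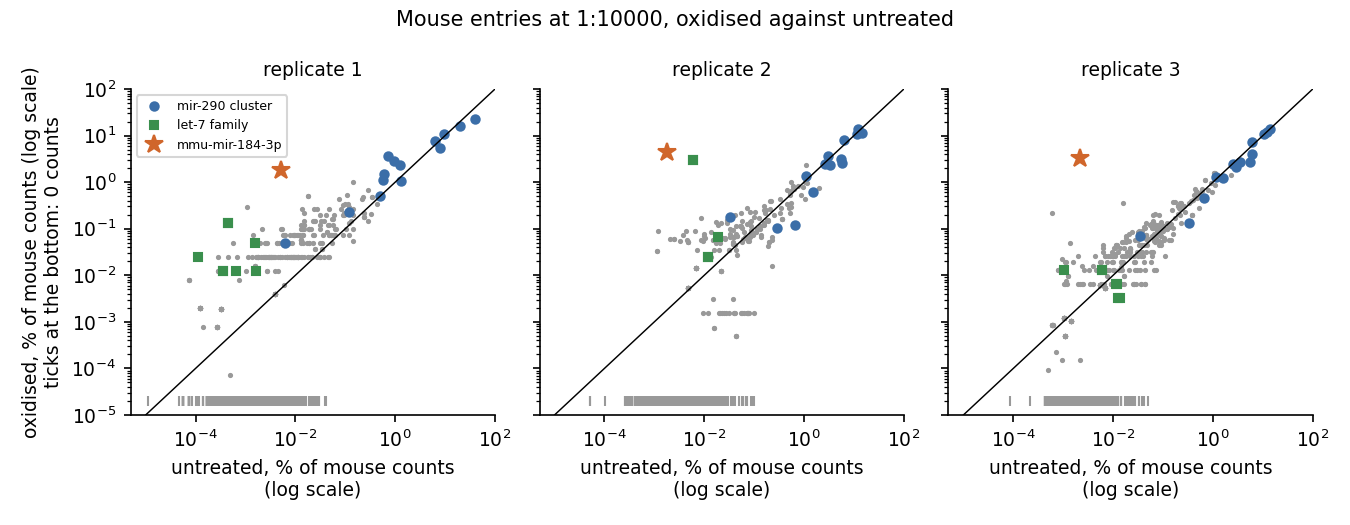
Share of mouse counts in percent of each mouse entry with 30 or more counts in some 1:10000 library, after oxidation against untreated in the same replicate (both log axes). Blue is the mir-290 cluster, green the let-7 family, grey other entries; the line marks equality and ticks at the bottom stand for 0 oxidised counts. mmu-mir-184-3p lies far above the line in all 3 replicates, and let-7 entries reach their highest share, 2.99% for mmu-let-7a-1-5p, in replicate 2.

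Oxidised replicates 1 and 3 kept the proportions of most mouse entries that their depth allowed to be scored, and replicate 2 did so for fewer. From the untreated share, 18, 216 and 107 entries would have 10 or more counts in oxidised replicates 1, 2 and 3. Of these, 77.8%, 42.1% and 88.8% lay within 2-fold of that count. The 3 sets differ, as more depth brings in rarer entries, and the replicates were not compared over a common set. In replicate 2, the deepest of the 3, 55 of the 216 entries had 0 counts and 97 in all were more than 2-fold lower. No such entry had 0 counts in replicate 1 or 3.

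Of 459 mouse entries tested, 15 were called higher and 150 lower after oxidation (edgeR quasi-likelihood test, Benjamini-Hochberg). Over all 576 tested entries of both species 26.0% were called lower. The split depended on scaling: with no TMM factor 28 were higher and 40 lower, all 40 of them among the 150, and with total counts 20 were higher and 66 lower. Of the 150, 68 had no oxidised count, and leaving out oxidised replicate 2 left 28 lower and 8 higher, and leaving out untreated replicate 1 left 111 lower and 24 higher. The falls at 0 oxidised counts are small as bounds: mmu-mir-503-5p had 64, 532 and 1927 untreated counts and was at least 6.66-fold lower, and mmu-mir-708-3p had 143, 514 and 1707 and was at least 6.24-fold lower.

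Of the mouse entries called higher, mmu-mir-184-3p had the largest fitted change. Its sequence is known to be conserved between insects and mammals. It had 94, 36 and 151 untreated counts and 75, 2962 and 526 oxidised counts. As a share of mouse counts it went from 0.00523%, 0.00183% and 0.00213% to 1.82%, 4.47% and 3.37%, without overlap, and the change was 8.23 ± 1.14 (SE; edgeR, Benjamini-Hochberg adjusted p = 7.09e-07). It was called in all 16 alternatives, the 1 mouse rise of which this holds. The fly entry dme-mir-184-3p had 0, 0 and 1 untreated and 1, 66 and 4 oxidised counts, and which species the reads of these entries came from was not tested.

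The let-7 family, which is held low in ES cells by Lin28, took 0.00824%, 0.0968% and 0.103% of mouse counts untreated and 0.388%, 6.11% and 0.0577% oxidised. It was higher in replicates 1 and 2 and lower in replicate 3 (difference 2.11 percentage points, exact permutation p = 0.3). Nearly all of it in oxidised replicate 2 came from mmu-let-7a-2-5p and its second copy mmu-let-7a-1-5p, with 1985 counts each, against 5.5 and 2 counts each in oxidised replicates 1 and 3. Both were called higher, mmu-let-7a-1-5p by 7.07 ± 1.58 (SE; edgeR, Benjamini-Hochberg adjusted p = 0.000456), and neither was called without oxidised replicate 2. As a share of mouse counts mmu-let-7a-1-5p went from 0.000445%, 0.00588% and 0.00608% untreated to 0.133%, 2.99% and 0.0128% oxidised, without overlap. Over the family 2 of 10 tested arms were called higher, the 2 let-7a copies, and 4 lower. Of all 459 mouse entries tested, 15 were higher and 150 lower. The shares over all tested entries, 17.5% and 26.0%, include the fly arms.

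Other mouse rises rested on few reads. mmu-mir-204-5p had 10, 11 and 42 untreated and 0, 0 and 34 oxidised counts, and was called higher at 5.43 ± 0.96 (SE) on replicate 3 alone, without which the fitted change was -7.41. mmu-mir-223-3p, of myeloid cells, was called on 2 oxidised counts. mmu-mir-6236-5p had 47.6, 23.8 and 95.6 against 2, 59 and 7.6 counts, higher as a share in 3 of 3 pairs. Mouse arms with fly relatives as a list took 1.69%, 3.72% and 3.96% of mouse counts untreated and 4.76%, 13.5% and 6.93% oxidised. Of 51 tested arms 3 were called higher and 18 lower, or 4 and 3 with no TMM factor. With the TMM factors 15 of 459 mouse entries were higher and 150 lower, and 17.5% and 26.0% of all tested entries of both species. Without mmu-mir-184-3p and both let-7a 5p arms the list took 1.68%, 3.71% and 3.95% untreated and 2.68%, 3.07% and 3.53% oxidised, lower after oxidation in replicates 2 and 3.

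The mouse composition was narrowest in untreated replicate 1. The effective number of mouse entries (inverse Simpson index) was 4.55, 15.5 and 16.5 untreated and 9.77, 16.6 and 17.4 oxidised, higher in 3 of 3 pairs (difference 2.41, exact permutation p = 0.5). Without untreated replicate 1 the difference was -1.41. Thinned to 4115 mouse counts, 57.6, 109 and 112 mouse arms were expected to have 3 or more counts untreated and 116, 114 and 123 oxidised (difference 25.0, exact permutation p = 0.1, the smallest possible). Without untreated replicate 1 that difference was 7.50.

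The oxidation response was compared with that at other mixing ratios, each of which has its own untreated libraries, by the difference of the log2 changes. From 1:1000 it differed for 1 of 576 tested entries (0.174% of entries), mmu-mir-19b-1-5p. This arm had 124, 269 and 1041 untreated counts at 1:10000 and 0 in each oxidised library, while at 1:1000 its oxidised counts were 0, 7 and 12. Of fly arms 0 differed between these ratios (edgeR, Benjamini-Hochberg; 4 were lower at an unadjusted p below 0.05). With the replicate set as a block 11 entries differed, all of mouse, and 60 did without replicate 3 and 0 without replicate 2. From 1:100000 the change differed for 12 entries (2.08%), all of mouse, of which 11 were lower at 1:10000. With the block 3 mouse entries were higher and 22 lower, without replicate 3 it was 5 and 43, and without replicate 2 none was called.

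From 1:1 the change differed for 21 entries (3.65%), 11 fly arms with a higher and 10 mouse entries with a lower change at 1:10000. The mouse scaling at the 2 ratios is unlike. In oxidised 1:1 libraries the effective number of mouse entries was 1.19, 1.31 and 1.38, against 9.77, 16.6 and 17.4 at 1:10000. Their TMM factors were 0.145, 0.371 and 0.253. Changes at 1:1 thus rest on a mouse composition of very few entries, and these differences cannot be read as a response of the fly arms alone. For dme-bantam-3p the difference was 5.29 ± 1.40 (SE; edgeR, Benjamini-Hochberg adjusted p = 0.0312) and for dme-mir-276a-3p, which acts in memory formation in flies, 5.27 ± 1.29. dme-mir-317-3p and dme-mir-305-5p differed by 4.23 each. Scaled to mouse counts with no TMM factor, the median difference of all entries moved from -0.17 to 3.29, and relative to that median the difference of dme-bantam-3p was 5.81. With that scaling 82 fly and 188 mouse entries were called higher and 1 mouse entry lower. With the TMM factors, 1 fly arm and 3 mouse entries were called without replicate 2, 5 and 27 without replicate 3, and 23 fly and 16 mouse entries without replicate 1.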

How the data were processed

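The authors deposited 1 table of estimated counts per library, with a value for each arm of each fly and mouse miRNA hairpin. Values need not be whole: 81.3% to 96.2% of those above 0 were, in the 6 libraries at 1:10000. Per the submitters' processing notes, the builds were dm3 and mm10, and the tools include HTSeq 0.6.1p1 and cutadapt 1.2.1, with no role named. For the aligner, and for reads that match several entries, the rule is not given in the sources used here. Adapters carried 4 random nt per the labels' protocols. Replicate 1 tables list 1781 entries and the others 2038; the 257 missing entries, at most 6 elsewhere, were set to 0. Genome coordinates and mature sequences were not used here.

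Values were rounded to whole numbers for count tests. edgeR 4.0.16 (quasi-likelihood, R 4.3.3) was fitted to all 36 libraries with 1 mean per treatment and ratio, scaled to mouse counts times a TMM factor from mouse entries. Entries passed filterByExpr at a minimum count of 10 and a minimum total of 15, and p-values were adjusted by Benjamini-Hochberg over all 576 entries that passed, with calls below 0.05. Single quantities used two-sided exact permutation tests over libraries (scipy 1.17.1), whose smallest p is 0.1 for 3 against 3. Intervals and floors cover counting error only, as reads are not independent molecules. Bounds use 3 counts over the group at 0. The fit was run on simulated data with the same spread set for every entry. That spread was not taken from these libraries, so the run supports no call here. The 6 libraries differed by more than sampling noise (lowest chi-square per degree of freedom 9.05), so none was counted as a duplicate. The labels pair the treatments, as each mixture was divided. Deviations of same-numbered libraries from their group means correlated at 0.16, -0.01 and 0.18 over the 300 most abundant entries. Those of differently numbered libraries correlated at -0.17 to 0.17, so these values do not show the pairing.

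Alternatives were the replicate block, scaling to total counts, DESeq2 1.42.0 size factors and test, no filter, a fit of the 6 libraries alone, other count minimums and leaving out libraries; omission of single libraries and mouse totals with no TMM factor were chosen after seeing the data. Named arms were the 12 leading fly arms of untreated 1:1 libraries, the called fly arms with the largest and smallest changes, fly arms without untreated counts, the leading mouse entries, the largest mouse changes and the lists of markers; others were chosen after their values were seen, namely the 7 fly arms seen only untreated and the entries whose response differed between ratios. All members, lists and rules were chosen with earlier results of these data known.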

Additional observations from a re-analysis of the deposited data

Results flagged for a closer look

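The oxidation response differed between 1:10000 and 1:1000 for 1 entry, between 1:10000 and 1:100000 for 12 entries, and between 1:10000 and 1:1 for 21 entries, by the edgeR test of the difference itself with Benjamini-Hochberg adjustment. The 12 entries are mouse arms. mmu-mir-501-3p had a higher change at 1:10000, with 39 of its 40 oxidised counts in replicate 2, and the other 11, among them mmu-mir-503-5p and mmu-mir-708-3p, had 0 or 1 oxidised counts there. Of the 21 entries 11 are fly arms, and their differences depend on the narrow mouse composition of the oxidised 1:1 libraries. dme-mir-9b-3p and dme-mir-1013-3p had the largest differences, 8.08 ± 1.59 and 9.99 ± 1.94 (SE), on 0 and 1 untreated counts at 1:10000, so that these fitted values depend on the prior count. All oxidised counts of dme-mir-1013-3p at 1:10000 (0, 49 and 0) lay in replicate 2. Without that replicate its rise at 1:10000 was not called. For mmu-mir-7a-1-5p the change at 1:10000 minus that at 1:1 was -3.60 ± 0.71 with the TMM factors and -0.12 without them (not called, adjusted p = 1.0). The cause of these differences was not tested.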

How the results depend on the processing

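The rise of fly over mouse counts stayed between 9.91 and 11.38 (log2) when libraries were left out, the gain of fly arms at equal depth between 40.1 and 44.3, and the rise minus that at 1:1000 and 1:100000 between 0.87 and 1.81 and between 0.13 and 1.62. Fly arms called higher were 44 in a fit of the 6 libraries alone and 63 to 87 with libraries left out. With the replicate set as a block, 86 fly arms and 16 mouse entries were higher and 183 mouse entries lower, and 11 entries differed from 1:1000. The block ended the calls of mmu-mir-96-5p, mmu-let-7d-5p and mmu-mir-31-3p, all lower. Mouse entries called higher were 28 with no TMM factor, 9 with DESeq2 size factors, 9 with the DESeq2 test, 24 with no filter, 3 in the 6 libraries alone and 6 to 24 with libraries left out. Mouse entries called lower were 66 with total counts, 40 with no TMM factor, 326 with DESeq2 size factors, 289 with the DESeq2 test, 1 in the 6 libraries alone and 28 to 166 with libraries left out. Entries that differed from 1:1000 were 3 with total counts, 0 in the libraries of both ratios alone, and 0 to 60 with libraries left out. The change in the effective number of mouse entries ranged from -1.41 (without untreated replicate 1) to 4.83, the mir-290 share from -14.5 to -1.86 points and the let-7 share from 0.154 to 3.19 points. The gain of mouse arms ranged from 7.50 to 34.7 with libraries left out, was -6.00 at a minimum of 1 count and -592 without thinning. With libraries left out, log2 changes ranged from -3.05 to 9.59 for dme-mir-970-3p, -7.41 to 6.64 for mmu-mir-204-5p and -2.85 to 7.38 for mmu-mir-223-3p, below 0 without replicate 3 and without its oxidised library (-2.33, -7.20 and -2.68). The cause was not tested. Depth limits oxidised replicate 1 most: its 4750 counts allow 0.0632% for an entry at 0.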

Other observations

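Other mouse groups kept small shares after oxidation. The mir-17-92 cluster and its paralogs, a proliferation-linked group, took 1.96%, 9.25% and 9.08% of mouse counts untreated and 4.34%, 8.38% and 10.8% oxidised. Of its 30 tested arms 1 was called higher and 8 lower by edgeR with the TMM factors. Of all tested entries 26.0% were lower, and of the 459 mouse entries 15 were higher and 150 lower. The mir-302 cluster, also of pluripotent cells, took 0.0185%, 0.0746% and 0.0747% untreated and 0.0970%, 0.189% and 0.0898% oxidised, without overlap, and 0 of 5 tested arms were called. The imprinted Dlk1-Dio3 cluster took 1.18%, 2.06% and 2.16% against 1.61%, 2.10% and 1.81%, so that its share overlapped between the treatments. With the TMM factors 28 of its 61 tested arms were called lower, against 26.0% of all tested entries and 150 of 459 mouse entries. With no TMM factor 10 were, against 40 of 459 mouse entries.

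In each oxidised library some mouse entries had 20 or more counts where their untreated share would give less than 1. In replicate 1 these were mmu-mir-184-3p, mmu-mir-16-1-5p and mmu-mir-16-2-5p, in replicate 2 mmu-mir-6236-5p, mmu-mir-466d-5p and mmu-mir-466n-5p, and in replicate 3 mmu-mir-184-3p and mmu-mir-204-5p. mmu-mir-16-1-5p took 0.0180% of mouse counts in untreated replicate 1, against 0.614% and 0.695% in untreated replicates 2 and 3 and 0.497%, 0.696% and 1.12% in the oxidised libraries.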
